A study of Mus musculus with 22 samples.

Results

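The promoters of noncoding RNA genes were examined for histone H3 lysine 27 acetylation (H3K27ac) in Kupffer cells, which are the macrophages that reside in the liver. A window was taken as a noncoding RNA promoter when it lay on an autosome, when the deposited annotation typed its nearest gene as ncRNA, and when its center was at most 1000 bp from the start site of that gene. Names that begin with Mir and a digit were left out, which removed 208 windows at 155 genes. This rule gave 966 windows at 672 gene names, of 96381 windows in all. The GENCODE M21 annotation types 23 of these names as protein-coding, so the nearest protein-coding gene of a window can be its own gene. The rule used only position and annotation, not signal. The outermost 100 bp inside the limit held 46 windows, whose mean level ranged from 2.39 to 940 with a median of 74.9, and the first 100 bp beyond it held 38 windows of the same gene type, from 2.97 to 535 with a median of 75.9.

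H3K27ac is deposited by the acetyltransferases p300 and CBP on nucleosomes next to active promoters and enhancers. Long noncoding RNAs are transcribed by RNA polymerase II, often from a promoter shared with, or close to, a protein-coding gene, and they include nuclear scaffolds such as *Neat1*, hosts of small nucleolar RNAs such as *Gas5*, and RNAs that act on a neighboring gene. In macrophages several of them accompany innate immune activation, and many others carry only a provisional name (Gm or Rik) and have no known role.

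The libraries were ChIP–seq of Kupffer cells sorted from livers of male, untreated mice 8 to 12 weeks of age on a standard diet. They comprised 3 libraries each of the inbred strains A/J, BALB/cJ and C57BL/6J and 3 of the CB6F1/J hybrid, the offspring of a BALB/cJ mother and a C57BL/6J father, in which reads spanning a variant were assigned to a parental allele. ChIP inputs were counted for A/J (3 libraries), BALB/cJ (3) and C57BL/6J (1). The labels name no engineered allele and no treatment in any group. In such bulk libraries fewer cells with a mark and less mark per cell cannot be told apart. The labels do not say whether libraries of a strain came from separate mice, so p-values measure only the spread between these libraries.

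Tags in windows ranged from 2291426 to 12980348 in the 9 strain libraries, and replicate 2 of each strain was the shallowest. The noncoding RNA promoters held 1.94 to 2.14% of the tags of these libraries, against 0.854 to 0.965% of the tags of the 7 inputs. Promoter windows of all 8 Kupffer cell marker genes (*Clec4f*, *Vsig4*, *Cd5l*, *Timd4*, *Marco*, *Adgre1*, *Csf1r* and *Cd68*) passed a mean normalized count of 16, and their summed level was 2091 to 3208 in C57BL/6J, 1596 to 2125 in A/J and 1863 to 2139 in BALB/cJ. Promoter windows were absent for all 4 hepatocyte, 3 B cell and 3 T and NK cell markers, and the 3 endothelial windows and the 1 stellate window stayed under 16. Of 3 neutrophil markers, *S100a8* alone had a window, with 8.82 to 27.9 in C57BL/6J, 8.90 to 21.3 in A/J and 27.02 to 59.5 in BALB/cJ.

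The central 200 bases of 5 windows are shown as examples of the promoters with the clearest strain or allelic differences. Whether these bases bear on the differences was not tested. They were read from the GRCm38 reference (mm10), plus strand, which is the C57BL/6J sequence, and the bases that A/J or BALB/cJ carry there were not used. Capitals mark matches on either strand. The strings searched were GAGGAAGT for PU.1, the lineage factor of macrophages, then TGACTCA for the inducible factor AP-1, then GGGCGG for the GC box that Sp1 family proteins bind, and lastly CCAAT for the box bound by NF-Y. *Gm15133* (chr7:104314758-104314957) and *4930481A15Rik* (chr19:5406733-5406932) were high in C57BL/6J, *9330179D12Rik* (chr6:127149758-127149957) in A/J and *Mirt1* (chr19:53464733-53464932) in BALB/cJ. *2810442N19Rik* (chr1:162004567-162004766) differed both between strains and between alleles.
Gm15133: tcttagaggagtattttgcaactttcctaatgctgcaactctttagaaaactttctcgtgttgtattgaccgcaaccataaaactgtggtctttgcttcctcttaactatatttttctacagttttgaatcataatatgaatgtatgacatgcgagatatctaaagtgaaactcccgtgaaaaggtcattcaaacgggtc
4930481A15Rik: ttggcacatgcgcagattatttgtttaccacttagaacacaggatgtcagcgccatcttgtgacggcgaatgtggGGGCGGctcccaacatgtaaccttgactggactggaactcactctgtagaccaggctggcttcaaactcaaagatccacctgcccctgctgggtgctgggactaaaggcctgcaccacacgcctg
9330179D12Rik: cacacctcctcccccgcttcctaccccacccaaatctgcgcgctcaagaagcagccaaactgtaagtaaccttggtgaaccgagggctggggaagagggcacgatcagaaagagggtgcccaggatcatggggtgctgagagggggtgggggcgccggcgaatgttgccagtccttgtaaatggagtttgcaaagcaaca
Mirt1: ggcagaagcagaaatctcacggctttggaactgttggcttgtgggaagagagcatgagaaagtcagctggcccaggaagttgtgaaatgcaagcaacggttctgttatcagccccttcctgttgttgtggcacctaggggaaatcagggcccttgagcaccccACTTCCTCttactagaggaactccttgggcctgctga
2810442N19Rik: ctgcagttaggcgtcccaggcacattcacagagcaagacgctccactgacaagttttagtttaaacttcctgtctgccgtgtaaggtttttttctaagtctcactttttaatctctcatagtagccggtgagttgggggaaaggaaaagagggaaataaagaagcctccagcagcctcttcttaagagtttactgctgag
The PU.1 letters occur in the *Mirt1* stretch and the GC box letters in *4930481A15Rik*, while the remaining stretches hold none of these strings. Over the central 200 bases of all 94171 autosomal windows, 8.57% held the PU.1 letters, 11.3% the AP-1 letters, 15.3% the GC box and 22.5% the CCAAT box.

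Noncoding RNA promoters lay between protein-coding promoters and the remaining windows in CpG ratio and in their shares with the GC box, PU.1 or AP-1 letters. The GC box was found in 34.1% of them, against 47.2% of 19329 protein-coding promoter windows and 6.73% of the 73876 other autosomal windows. The PU.1 letters occurred in 4.76%, 3.53% and 9.94% of these groups, and the AP-1 letters in 7.76%, 4.17% and 13.2%. The CCAAT box did not follow this order, at 25.5%, 25.1% and 21.8%. The observed over expected ratio of CpG dinucleotides, a measure of CpG islands, had a median of 0.54 in noncoding RNA promoters, 0.70 in protein-coding promoters and 0.21 elsewhere.

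In level they were close to protein-coding promoters. The median normalized count over the 9 strain libraries, which is the count divided by the effective library size and scaled to their mean, was 101 (quartiles 23.7 and 242) in noncoding RNA promoters, 119 (42.9 and 231) in protein-coding promoters and 29.7 in all windows. By strain the median was 98.6 (A/J), 101 (BALB/cJ) and 101 (C57BL/6J). Of the 966 windows, 260 (26.9%) also contained the start site of a protein-coding transcript in GENCODE, and these had a median of 183, against 74.1 in the 706 without one. In the former the acetylation cannot be assigned to the noncoding or to the coding gene. Windows with a CpG ratio of at least 0.6 had a median level of 186 (433 windows) and those under 0.6 a median of 46.5 (533 windows). Across the 966 windows Spearman's rho between CpG ratio and level was 0.41, across windows that share libraries and in part overlap (489 windows overlapped another of the set).

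The highest level was found at *5031425E22Rik*. This window, centered 1012 bp from a start site of *Kmt2e*, a chromatin regulator, had a normalized count of 748, 666 and 1117 in C57BL/6J, 998, 914 and 1126 in A/J and 908, 662 and 1321 in BALB/cJ. The strains overlapped there, and the log2 fold changes were 0.07, 0.26 and 0.19 in the 3 strain pairs. The other 9 of the 10 highest genes were *1600020E01Rik*, *Zbtb11os1*, *C130046K22Rik*, *E230013L22Rik*, *Etohd2*, *4930404I05Rik*, *B330016D10Rik*, *4930526I15Rik* and *4930528A17Rik*. The windows of *C130046K22Rik*, *4930404I05Rik*, *4930526I15Rik* and *4930528A17Rik* contain a protein-coding start site (*Gosr2*, *Synj1*, *Ppp2r3d* and *Pnisr*). Those of *1600020E01Rik*, *Zbtb11os1*, *E230013L22Rik* and *Etohd2* are centered 534 to 773 bp from one, and that of *B330016D10Rik* 8036 bp. None of these 10 windows was called by edgeR in any strain pair, with adjusted p-values of at least 0.333.

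**Figure D1:**
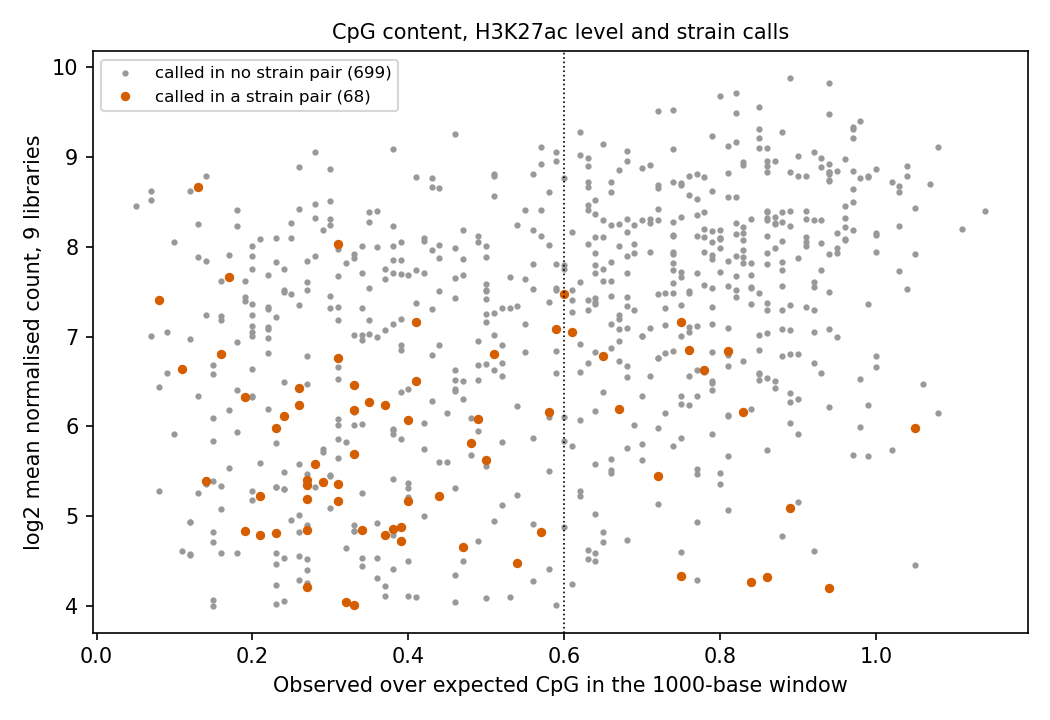
Each point is 1 of the 767 noncoding RNA promoter windows tested between strains, with the observed over expected CpG ratio of the 1000-base window on the x axis and the log2 mean normalized count over 9 libraries on the y axis. Of the 68 windows called in at least 1 strain pair (orange), 53 lie left of the dotted line at 0.6 and 15 at or right of it.

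To ask how strain background relates to acetylation at these promoters, the 3 strains were compared in pairs. A mean normalized count over 16 was reached by 767 of the 966 windows, and a window was called at an edgeR adjusted p under 0.05 with an absolute log2 fold change over 1. Between A/J and BALB/cJ, 28 of 767 windows (3.65%) were called, beside a background of 3.63% of all 60387 windows tested. A/J had the higher level in 11 of them (background 1.4%) and BALB/cJ in 17 (background 2.23%). Between A/J and C57BL/6J, 36 windows (4.69%) were called, against a background of 7.09%, with A/J the higher in 13 (background 3.16%) and C57BL/6J in 23 (background 3.93%). Between BALB/cJ and C57BL/6J, 48 windows (6.26%) were called, against 8.56%, with BALB/cJ the higher in 26 (background 4.46%) and C57BL/6J in 22 (background 4.1%). In protein-coding promoter windows the shares were 1.51%, 2.91% and 3.83%. The shares in noncoding RNA promoters were thus near or below those of all windows and above those of protein-coding promoters, and these differences were not tested. The median log2 fold change over the 767 windows was 0.01, 0.00 and 0.03 in the 3 pairs, and 0.01, -0.01 and -0.01 over all windows. Without replicate 3 of BALB/cJ the first count fell to 18.

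Among the windows tested, those poor in CpG were called in a larger share, a difference that was not tested. At least 1 strain pair was called in 68 windows at 50 gene names (8.87%, against a background of 12.3% of all windows and 5.44% of protein-coding promoters). Of the 376 tested windows with a CpG ratio under 0.6, 53 (14.1%) were called, and of the 391 at or above it 15 (3.84%). In protein-coding promoters the shares were 9.37% and 3.47%. The CpG-poor windows were also weaker, with a median level of 98.8 among those tested against 213, and the part of level in the shares was not tested. Of the 233 tested windows that contain a protein-coding start site 7 (3.00%) were called, and of the 534 without one 61 (11.4%). The GC box was present in 22.1% of called and 37.8% of other tested windows, and the PU.1 letters in 5.88% and 3.72%. The AP-1 letters were present in 11.8% and 6.44%, and the CCAAT box in 20.6% and 26%. These differences were not tested.

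**Figure D2:**
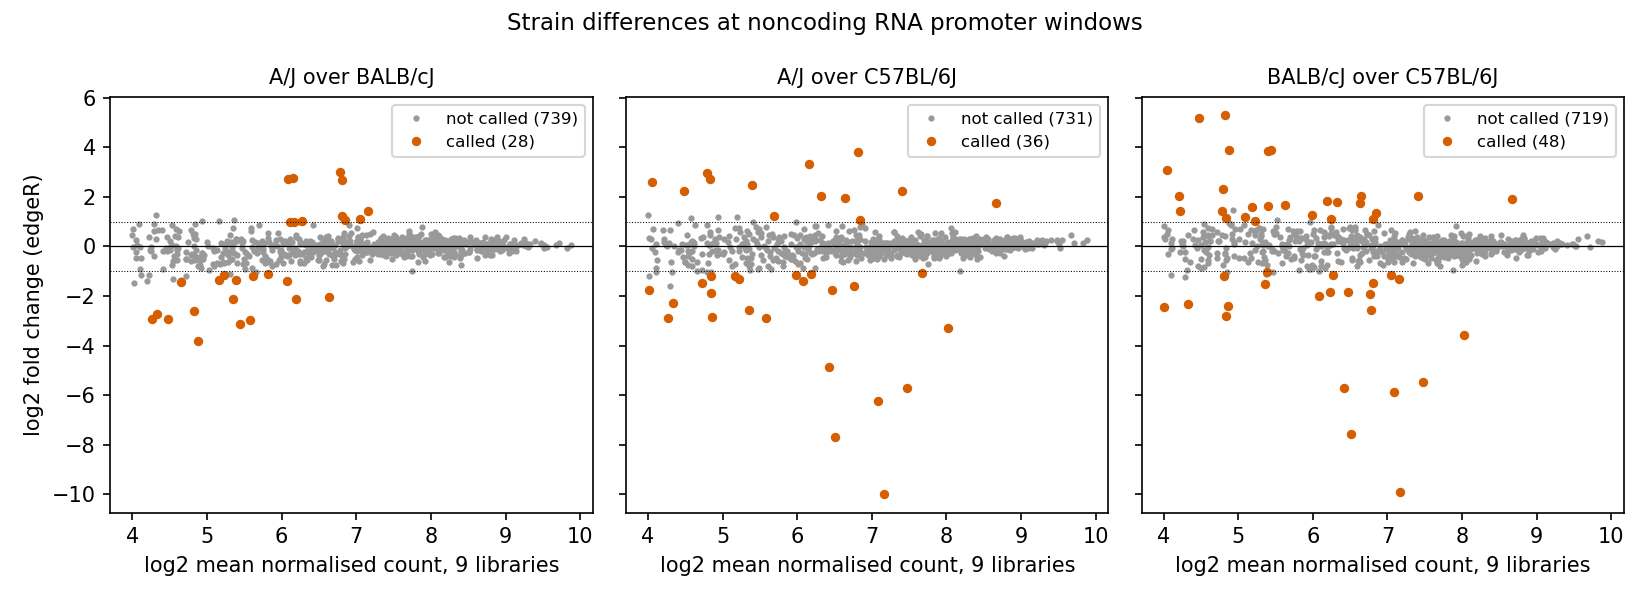
Panels give the 3 strain pairs, with the log2 mean normalized count over 9 libraries on the x axis and the edgeR log2 fold change on the y axis for the 767 windows tested, called windows in orange and dotted lines at -1 and 1. The 28, 36 and 48 called windows lie on both sides of 0, and the lowest point of both panels with C57BL/6J is *Gm15133* (log2 fold change -9.97 and -9.88), a fitted value that rests on 1 tag in the lower strain.

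Windows that set C57BL/6J above both other strains numbered 11, at 8 gene names. Means are given below as normalized count ± SD (n = 3 libraries), and where strains are not named the order is A/J, then BALB/cJ, then C57BL/6J; log2 fold changes are given ± SE. At *Gm15133* (chromosome 7, 104314357 to 104315357), a predicted gene, the normalized count was 353, 331 and 606 in C57BL/6J, 0.736, 0 and 0 in A/J and 0.844, 0 and 0 in BALB/cJ. All 3 C57BL/6J libraries stood far above the other 6. The raw tags summed to 1370 in C57BL/6J, 1 in A/J and 1 in BALB/cJ, depth-adjusted ratios of 1604 (exact 95% interval 287 to 63397) and 1480 (265 to 58492), where the intervals cover counting error only. The edgeR adjusted p was 1.82e-11 against A/J and 1.98e-11 against BALB/cJ. The input libraries held 0 tags here in each of the 6 A/J and BALB/cJ inputs and 6 in the C57BL/6J input, and their part in the difference was not tested.

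*AA388235* (chromosome 17, 33980793 to 33981793) lies in the major histocompatibility region, with *H2-K1*, a class I antigen-presenting molecule, as the nearest protein-coding gene 16192 bp away. Its normalized count was 243, 249 and 322 in C57BL/6J, 0, 0 and 2.59 in A/J and 0, 0 and 2.92 in BALB/cJ. The groups did not overlap, with log2 fold changes of -7.67 ± 0.51 (SE, n = 3 per strain; edgeR adjusted p = 2.07e-10) for A/J against C57BL/6J and -7.56 ± 0.50 (2.63e-10) for BALB/cJ against C57BL/6J. A second window of the gene, 788 bp upstream, gave -4.86 and -5.72. Raw input tags at the first window summed to 18.5 over 3 A/J inputs, 3 over 3 BALB/cJ inputs and 7.5 in 1 C57BL/6J input. At the second window these sums were 48, 17 and 4.5. They were not adjusted for depth, and their part in the differences was not tested. The *H2-K1* promoter window itself ranged from 354 to 585 in C57BL/6J, 273 to 515 in A/J and 288 to 443 in BALB/cJ, and was not called.

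*4930481A15Rik* (chromosome 19, 5406332 to 5407332) had a normalized count of 449, 405 and 677 in C57BL/6J, 13.3, 11.9 and 5.82 in A/J and 10.1, 11.4 and 13.1 in BALB/cJ. The C57BL/6J libraries again stood apart, by -5.71 ± 0.33 (log2, edgeR adjusted p = 2.19e-11) for A/J and -5.45 ± 0.32 (3.02e-11) for BALB/cJ. The overlapping windows of the gene at -213 and +413 bp shared tags with it and were called in the same direction, with log2 fold changes of -6.24 and -3.30 for A/J and -5.88 and -3.56 for BALB/cJ. The window at +413 bp had a count of 655 ± 203 in C57BL/6J and kept 68.4 ± 12.8 in A/J and 57.4 ± 9.85 in BALB/cJ.

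The remaining 5 genes of this pattern had lower levels in C57BL/6J. *B430010I23Rik*, near *Mtus1*, had 201 ± 41.5 in C57BL/6J, 70.6 ± 21.4 in A/J and 53.9 ± 5.83 in BALB/cJ. *D730005E14Rik* had 52.2 ± 17.2, 47.2 ± 3.27 and 166 ± 11.7, and its window overlaps that of *Apobec3*, a cytidine deaminase that restricts retroviruses, which was called between BALB/cJ and C57BL/6J in the same direction (-1.12, edgeR adjusted p = 0.00161). *2210417A02Rik* had 10.1 ± 4.84, 12.8 ± 3.69 and 64.4 ± 17.1. *2810442N19Rik* at -710 bp had 15.1 ± 6.63, 9.58 ± 3.71 and 61.5 ± 3.68, and *4930431P22Rik* had 9.48 ± 2.07, 6.48 ± 2.44 and 32.5 ± 0.918. Fitted log2 fold changes of these 5 windows against C57BL/6J lay between -1.58 and -2.85.

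Windows that set C57BL/6J below both other strains numbered 7, at 5 gene names, and *C920009B18Rik* supplied 3 of them. At its window 55 bp upstream of the start site (chromosome 10, 22306165 to 22307165) the count was 172, 109 and 162 in C57BL/6J, 543, 368 and 590 in A/J and 566, 490 and 656 in BALB/cJ. The lowest A/J or BALB/cJ library lay above the highest of C57BL/6J, with log2 fold changes of 1.75 ± 0.25 (edgeR adjusted p = 1.70e-05) and 1.93 ± 0.25 (4.06e-06). Its windows at -766 and +825 bp gave 1.96 and 2.24 for A/J and 2.03 and 2.02 for BALB/cJ. *BC064078*, in the region of the *Clec2* lectin-like genes, had 112 ± 41.5, 98.0 ± 18.6 and 30.2 ± 10.4, with log2 fold changes of 2.02 and 1.80. *Gm6213* had 47.0 ± 14.8, 29.8 ± 8.61 and 6.30 ± 3.37, *Gm12992* 124 ± 50.2, 158 ± 26.2 and 64.0 ± 13.97, and *Gm17745* 18.6 ± 5.87, 28.5 ± 4.99 and 2.59 ± 2.25.

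A/J stood above both other strains at *9330179D12Rik*, next to *Ccnd2*, which encodes the cell cycle protein cyclin D2. At -211 bp (chromosome 6, 127148678 to 127149678) the count was 20.0, 4.66 and 20.8 in C57BL/6J, 183, 184 and 159 in A/J and 28.7, 13.7 and 28.5 in BALB/cJ. Every A/J library exceeded the other 6, by 2.78 ± 0.31 (log2, edgeR adjusted p = 1.20e-06) and 3.34 ± 0.33 (6.67e-08). At +231 bp the count was 277 ± 37.4, 41.1 ± 12.1 and 18.7 ± 9.34, and there BALB/cJ was also above C57BL/6J (1.12 ± 0.32, adjusted p = 0.0241). A separate *Ccnd2* promoter window was called the same way, at 2.43 (adjusted p = 0.00247) and 3.53 (8.76e-05). A window of *2500002B13Rik* at -841 bp, with 0 to 2.66 in C57BL/6J, 41.2, 41.5 and 34.9 in A/J and 0.844 to 2.92 in BALB/cJ, fell under the filter on mean count. It was singled out after its values were seen and has no test.

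A/J stood below both other strains in 6 windows of 4 genes. *5033406O09Rik* at +386 bp had 65.3, 79.2 and 52.9 in C57BL/6J, 11.04, 5.93 and 7.12 in A/J and 53.2, 82.4 and 73.8 in BALB/cJ. A/J did not overlap either strain, and the log2 fold changes were -2.98 ± 0.35 (edgeR adjusted p = 3.10e-06) and -2.89 ± 0.36 (2.29e-06). *Gm16062* had 34.1 ± 12.01, 85.6 ± 21.2 and 82.6 ± 9.99, *C230014O12Rik* 20.2 ± 3.73, 44.0 ± 6.93 and 48.2 ± 10.4, and *2410017I17Rik* 3.39 ± 2.89, 27.5 ± 7.96 and 26.8 ± 18.8.

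BALB/cJ stood above both other strains at *AI506816*, *2900005J15Rik* and *D930032P07Rik*. *AI506816* had 9.33, 13.97 and 3.15 in C57BL/6J, 8.83, 35.6 and 7.12 in A/J and 101, 68.7 and 144 in BALB/cJ. The lowest BALB/cJ library exceeded all others, with log2 fold changes of -3.12 ± 0.46 (edgeR adjusted p = 1.25e-04) for A/J and 3.91 ± 0.51 (9.45e-06) over C57BL/6J. *2900005J15Rik*, whose window contains a start site of *Prkag2*, a subunit of the energy sensor AMPK, had 45.5 ± 6.48, 193 ± 38.9 and 58.1 ± 14.4. *D930032P07Rik*, near *Glis3*, had 36.2 ± 6.18, 85.5 ± 3.12 and 26.1 ± 6.82. The neutrophil marker *S100a8* was also highest in BALB/cJ (27.02 to 59.5, against 8.82 to 27.9 in the other strains), and its part in these differences was not tested.

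All 3 strain pairs were called at *Mirt1* and *9530026P05Rik*, and at the window of *9330179D12Rik* at +231 bp described above. *Mirt1*, a long noncoding RNA named for induction in infarcted heart (chromosome 19, 53464332 to 53465332), had 9.33, 9.31 and 2.52 in C57BL/6J, 42.0, 29.7 and 25.9 in A/J and 74.3, 108 and 78.1 in BALB/cJ. The strains did not overlap, in the order BALB/cJ, A/J, C57BL/6J, with log2 fold changes of -1.36 ± 0.33 (A/J against BALB/cJ, edgeR adjusted p = 0.0127), 2.48 ± 0.45 (A/J against C57BL/6J, 4.40e-04) and 3.85 ± 0.43 (BALB/cJ against C57BL/6J, 3.93e-07). The promoter window of *Dusp5*, a MAP kinase phosphatase 64277 bp away, was called in the same direction against C57BL/6J, at 1.85 for A/J and 2.54 for BALB/cJ. *9530026P05Rik* at +412 bp had 9.004 ± 5.32, 56.4 ± 15.96 and 1.64 ± 0.597. Its A/J against C57BL/6J call was close to the threshold, at 2.25 ± 0.71 (edgeR adjusted p = 0.0489). Both of these means lay under 16, and the window passed the filter on mean count through BALB/cJ.

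BALB/cJ stood below both other strains in 6 windows of 4 genes. *4930412C18Rik* had 137, 102 and 147 in C57BL/6J, 143, 154 and 240 in A/J and 19.4, 25.2 and 23.4 in BALB/cJ. BALB/cJ did not overlap the others, with log2 fold changes of 3.02 ± 0.29 (edgeR adjusted p = 9.60e-08) and -2.55 ± 0.29 (5.56e-07). *Hotairm1*, a noncoding RNA of myeloid cells, had 157 ± 21.1, 74.8 ± 2.66 and 166 ± 26.4, at 1.09 ± 0.23 (adjusted p = 0.00392) and -1.15 ± 0.23 (0.00108). *2700038G22Rik* had 159, 172 and 186 in C57BL/6J, 196, 166 and 204 in A/J and 64.2, 50.4 and 90.5 in BALB/cJ. Raw input tags at this window summed to 46.5 over 3 A/J inputs, 11 over 3 BALB/cJ inputs and 10 in 1 C57BL/6J input. They were not adjusted for depth, and their part in the difference was not tested. *2310005A03Rik* had 130 ± 23.7, 57.9 ± 29.2 and 148 ± 36.4.

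**Figure D3:**
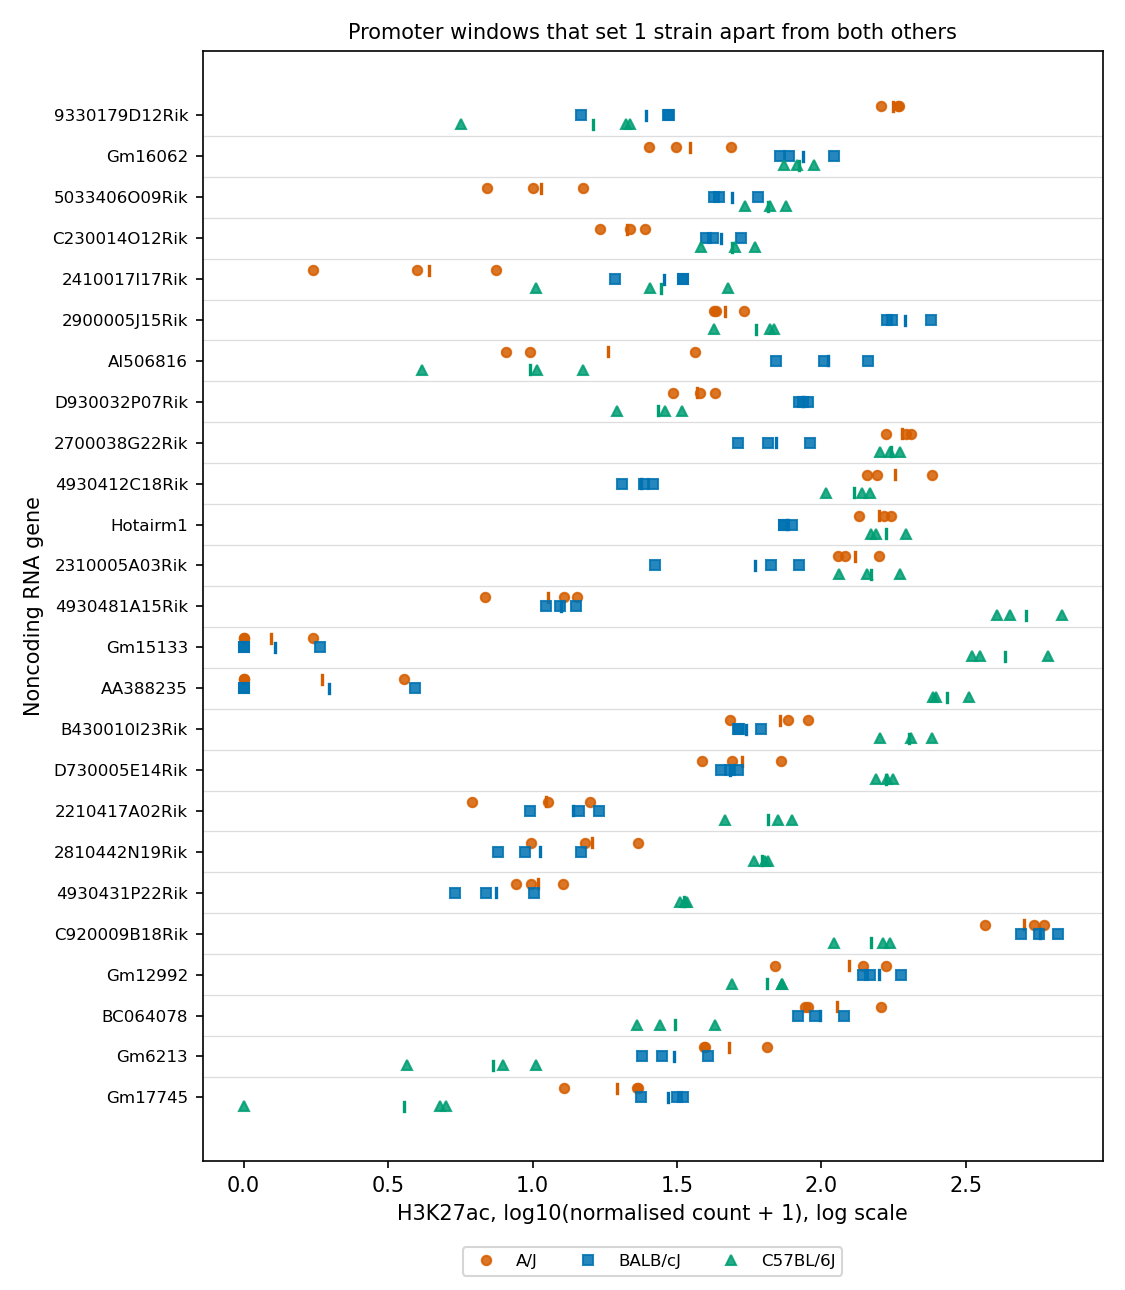
Rows are the 25 genes at which a window set 1 strain apart from both others, each at the window nearest the start site among those with that pattern, and the x axis is log10 of the normalized count plus 1, with a point per library (3 per strain) and a tick at each strain mean. *Gm15133* and *AA388235* show the widest gaps, with A/J and BALB/cJ at 0 to 2.92 and C57BL/6J at 243 to 606.

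Calls at noncoding RNA promoters were set beside the nearest protein-coding promoter. Of the 112 calls over the 3 pairs, 59 could be set beside a tested promoter window of the nearest protein-coding gene that did not overlap the called window, at 28 such genes. That neighbor was called in the same direction in 16, in the opposite direction in 0 and was not called in 43, where 1.51 to 3.83% of all protein-coding promoter windows were called. The 16 calls rest on 8 neighboring genes, at up to 220563 bp, and *Ccnd2* was counted 4 times. *Trim12a*, a TRIM family gene 598 bp from the *Gm15133* window, was at 0 in all 6 A/J and BALB/cJ libraries and at 98.6, 60.5 and 143 in C57BL/6J, whereas *H2-K1* beside *AA388235* was not called.

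Calls at well-studied noncoding RNA genes were counted on lists, beside a background of 12.3% of all windows called in at least 1 pair and 8.87% of noncoding RNA promoters. Among snoRNA host genes, which carry small nucleolar RNAs in their introns, 16 of 22 listed had a window, and 0 of 21 windows passed in any pair. *Gas5* had 254 ± 22.4, 244 ± 47.9 and 238 ± 39.0 for A/J, for BALB/cJ and lastly for C57BL/6J. *Snhg6* had 72.9, 92.0 and 84.1, then 80.2, 82.4 and 86.9, then 132, 126 and 122. C57BL/6J did not overlap the others at *Snhg6*, but with log2 fold changes of -0.62 and -0.60 and edgeR adjusted p-values of 0.102 and 0.0988 it passed no threshold. Small structural RNAs (8 windows tested) and imprinted RNAs (4 tested) gave 0 calls.

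Nuclear and long-known noncoding RNAs had the highest median level of the lists, 268 over 24 windows. *Malat1*, a nuclear speckle RNA, had 303 ± 36.6, 283 ± 22.5 and 362 ± 143 at +62 bp, and *Neat1*, the scaffold of paraspeckles, 383 ± 88.7, 426 ± 52.6 and 498 ± 151. Of 23 windows tested, *Hotairm1* alone was called. *Crnde*, with 52.1 ± 7.54, 25.5 ± 3.83 and 29.8 ± 5.63, gave 1.02 between A/J and BALB/cJ (edgeR adjusted p = 0.0676).

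Of the immune and macrophage list, 17 of 44 genes had a window and 24 windows were tested. Calls fell on 4 windows (background 12.3%) of 3 genes, *AI506816* (2), *Mirt1* and *AI427809*, and all 4 were higher in BALB/cJ than in C57BL/6J (background 4.46%), as was the *S100a8* window, whose part in this was not tested. *AI427809*, the macrophage RNA MeXis that acts on *Abca1*, had 39.5 ± 8.55, 49.8 ± 7.13 and 22.7 ± 9.54 at +761 bp (1.02 ± 0.33, edgeR adjusted p = 0.0463). It did not pass with a mean count minimum of 1 (0.0526) or 32 (0.0533). The window of *AI427809* at +155 bp was not called (0.76 ± 0.32 between BALB/cJ and C57BL/6J, edgeR adjusted p = 0.149). That at -52 bp, nearest the start site, fell under the filter, at 15.4 ± 6.11, 10.8 ± 6.50 and 10.3 ± 1.18. *AW112010*, an interferon-inducible transcript, had 166 ± 55.3, 153 ± 10.1 and 204 ± 38.5 and was not called. Between BALB/cJ and C57BL/6J these 24 windows had a median log2 difference of 0.07, against -0.01 over all windows.

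**Figure D4:**
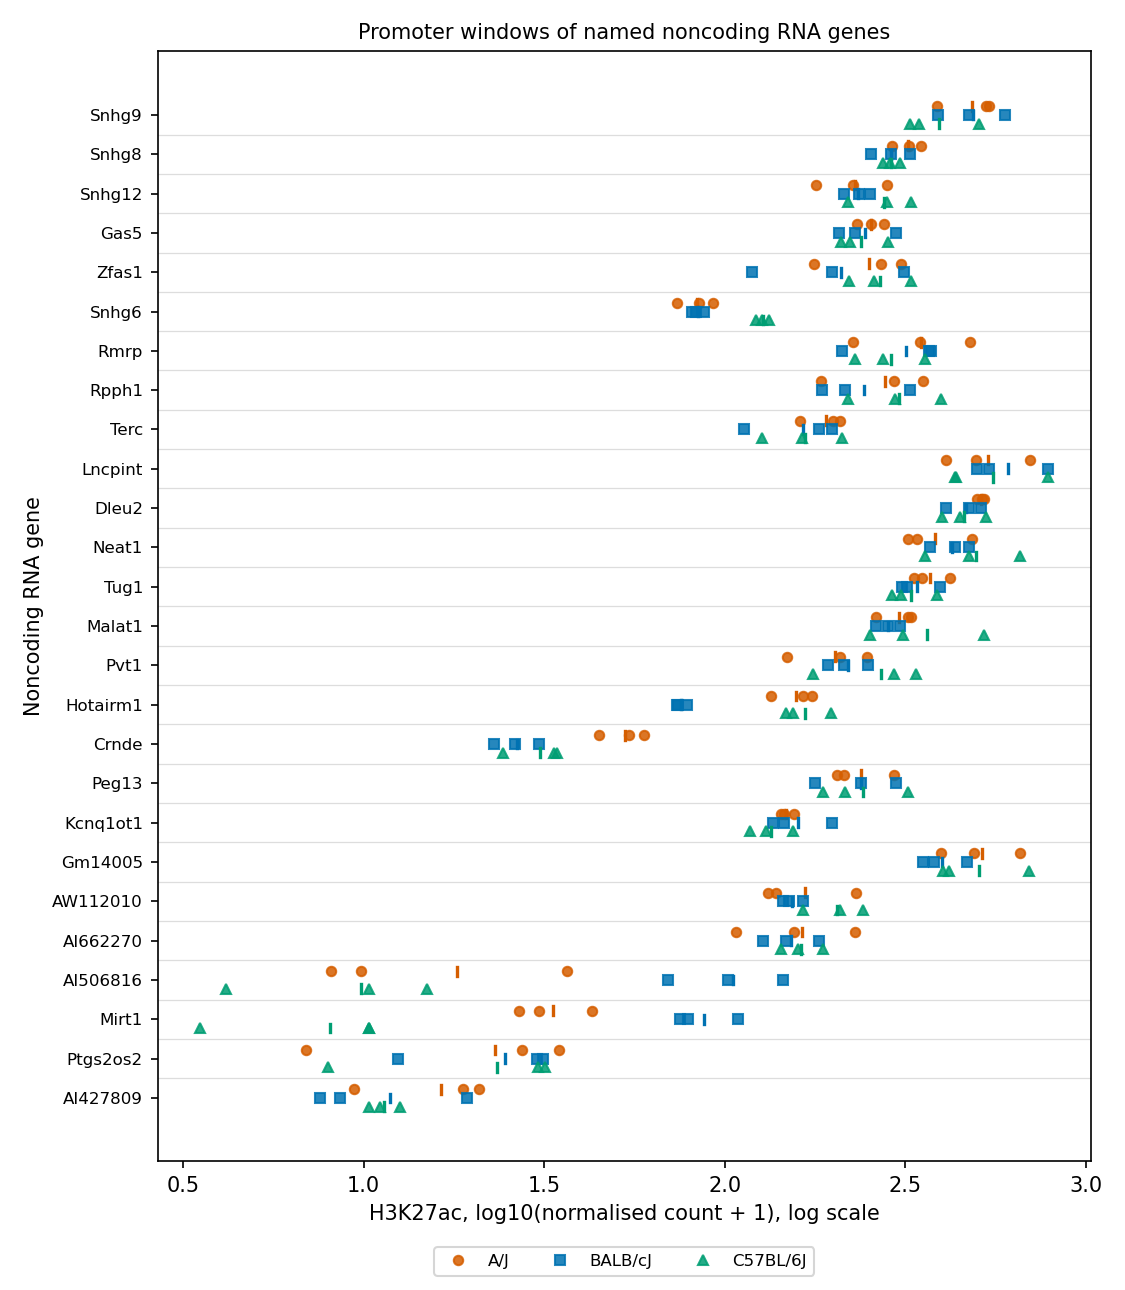
Rows are 26 listed noncoding RNA genes at the window nearest the start site, and the x axis is log10 of the normalized count plus 1, with a point per library (3 per strain) and a tick at each strain mean. Strains overlap at *Gas5*, *Malat1* and *Neat1*, while *AI506816* and *Mirt1* are highest in BALB/cJ and *Hotairm1* is lowest there. *AI427809* is drawn at -52 bp, not at its called window at +761 bp.

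In CB6F1/J hybrids both alleles share one nucleus, so the allelic comparison asks whether a strain difference is kept when the cellular environment is shared. A hybrid region was available for 954 of the 966 windows, but 713 had no allelic tag, and 91 passed a mean allelic count of 16. Between the BALB/cJ and C57BL/6J alleles 5 of these 91 (5.49%) were called by edgeR, beside a background of 7.2% of 5234 windows. The BALB/cJ allele was the higher in 1 (background 2.94%) and the C57BL/6J allele in 4 (background 4.26%). Of the 48 windows called between BALB/cJ and C57BL/6J, only 8 were testable between alleles. These 8 windows belong to 6 genes. All 8 had the same sign in both comparisons and 4 were called in both, beside 88.9% and 37.3% of the 648 windows of any kind called between the strains and tested between alleles. Over the 91 windows 52 had the same sign, as had 3280 of all 5232 windows tested in both, and Pearson's r between strain and allelic log2 fold change was 0.724, across windows that share libraries and in part tags.

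Of the 91 windows tested, that of *2810442N19Rik* at -710 bp had the largest allelic log2 fold change. At -710 bp its BALB/cJ allele had 2.5, 3.5 and 0 tags in the 3 hybrids and its C57BL/6J allele 27, 90.5 and 22.5. The alleles did not overlap, at -4.33 ± 0.69 (edgeR adjusted p = 3.45e-04), beside -2.81 ± 0.39 between strains. At -303 bp the tags were 15.5, 38 and 25 against 67, 194.5 and 129, at -2.22 ± 0.27 (1.92e-05), beside -1.84 ± 0.26 between strains. With the hybrid library as a block the edgeR adjusted p-values rose to 0.0394 at -710 bp and 0.0332 at -303 bp.

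*C920009B18Rik* at -766 bp had 40, 60.5 and 59 tags on the BALB/cJ allele and 17, 35.5 and 21.5 on the C57BL/6J allele, at 1.17 ± 0.34 (edgeR adjusted p = 0.0420), which became 0.0888 with the hybrid library as a block. *Gm14023* had 15, 48.5 and 23 against 38.5, 101 and 68, at -1.24 ± 0.32 (0.0200), which became 0.0568 with the block. At the latter the strain difference was -0.79 ± 0.22, below the fold threshold. With the block, 3 of the 5 calls were kept, at edgeR adjusted p-values of 0.0332 to 0.0448, close to the threshold. At 4 windows almost all tags lay on 1 allele but were too few to test. At *Gm6213* the sums were 83.5 tags on the BALB/cJ allele and 0.5 on the C57BL/6J allele, and at the *AA388235* window 788 bp upstream 1.5 and 56.0, both in the direction of the strain difference. *4930526I15Rik* at -716 bp had 31 and 0 tags and *4930589L23Rik* at -157 bp 37.5 and 0, and neither was called between the strains (log2 fold changes of -0.68 and 0.13, edgeR adjusted p = 0.155 and 0.833).

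**Figure D5:**
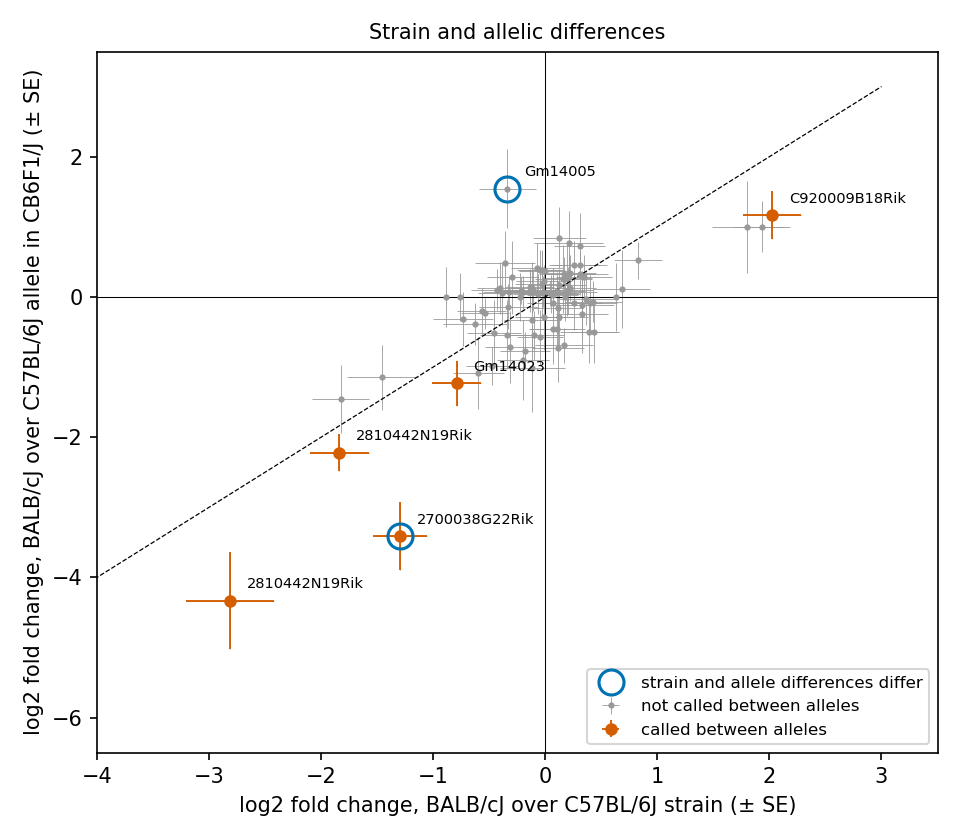
Each point is 1 of the 91 windows tested in both comparisons, with the log2 fold change between BALB/cJ and C57BL/6J strains on the x axis and between the BALB/cJ and C57BL/6J alleles of CB6F1/J on the y axis, bars giving the SE and the dashed line equality. The 5 windows called between alleles are colored, and the 2 circled windows are *2700038G22Rik* and *Gm14005*.

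Strain and allelic differences were then compared in an interaction test, which 2 of 91 windows passed (2.20%, beside a background of 2.41% of 5232), 1 with a positive difference (background 1.34%) and 1 with a negative difference (background 1.07%). The allele columns of a hybrid library entered this test as separate libraries, and no version with the library as a block was fitted. *2700038G22Rik* (chromosome 5, 23850181 to 23851181) had 6.5, 8 and 2.5 tags on the BALB/cJ allele and 41.5, 63.5 and 71 on the C57BL/6J allele. Its allelic difference was -3.41 ± 0.48 (edgeR adjusted p = 1.03e-04, or 0.0448 with the hybrid library as a block). This was larger than the strain difference of -1.29 ± 0.24 (4.82e-04), by 2.15 ± 0.52 (0.0162). The strain inputs at this window also differed, as given above, hybrid inputs were not used, and their part was not tested. At *Gm14005*, also known as Morrbid, a regulator of myeloid cell lifespan that acts on *Bcl2l11*, the strain count was 515 ± 132, 400 ± 60.8 and 505 ± 167 for A/J, for BALB/cJ and lastly for C57BL/6J. The strains overlapped there (-0.34 ± 0.26 between BALB/cJ and C57BL/6J), while the hybrids had 14, 36 and 24.5 tags on the BALB/cJ allele and 1.5, 9.5 and 13.5 on the C57BL/6J allele (1.55 ± 0.57, adjusted p = 0.123). The difference was -1.89 ± 0.50 (adjusted p = 0.0328), and at the window of the same gene at +629 bp it was 0.26. Neither call survived every removal of 1 library, and without CB6F1/J replicate 3 the count was 0.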

How the data were processed

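H3K27ac ChIP–seq was analyzed in 9 inbred and 3 hybrid libraries, with 7 inputs. The authors aligned reads with Bowtie2 to mm10 (GRCm38) or to mm10 carrying the SNPs and indels of the strain, moved them to mm10 with MMARGE and counted raw tags with HOMER in 1000 bp windows around merged ATAC-seq peaks. Deposited values of replicates 1 and 3 are whole counts. Deposited values of replicate 2, of the inputs and of the hybrid alleles are expected counts in steps of 0.5 (34.4 to 38.8% of replicate 2 values not whole) and were rounded. Larger structural variants were not considered by the authors, and their hybrid reads had to match perfectly and span a variant. Hybrid regions of 200 bp were summed into each window that held their midpoint (107291 of 217456), so neighboring windows can share tags.

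Counts of all windows were fitted with edgeR 4.0.16 (R 4.3.3; TMM, quasi-likelihood, 1 fit for the 9 libraries, Benjamini-Hochberg adjustment) after a filter at a mean normalized count of 16. Windows were called when the log2 fold change exceeded 1 in size and the adjusted p was below 0.05. Alternatives were DESeq2 1.42.0, RLE factors, other filters, fewer samples, stricter membership and a replicate block. Residuals of same-numbered libraries correlated in all 9 pairs (r = 0.241 to 0.428). The main fit held no term for this pairing, so its counts, SE and adjusted p-values do not use it. Only the replicate block did. Named windows were the 8 largest called fold changes per direction without overlap between groups (mean of at least 50, or 20 for alleles, in the higher group; 1 window per gene), the 10 highest genes, listed genes and interaction calls; others named were chosen after their values were seen. The windows, lists and rule were chosen with earlier results of these data known. Scripts were tested on simulated data. Start sites were from GENCODE M21 and sequence from GRCm38. Hybrid inputs were not used here. One neighboring gene and 1 sequence are not reported here.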

Additional observations from a re-analysis of the deposited data

Results flagged for a closer look

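At 2 windows the strain difference and the allelic difference between BALB/cJ and C57BL/6J were unequal by the interaction test. That test did not pair the alleles of a hybrid library. At *2700038G22Rik* the strain difference minus the allelic difference was 2.15 (log2), and at *Gm14005* it was -1.89. Leaving out single libraries removed the first call without BALB/cJ replicate 3 (edgeR adjusted p = 0.0865), C57BL/6J replicate 1 (0.0543) or CB6F1/J replicate 3 (0.162). The second was lost without BALB/cJ replicate 1 (0.0711) or 2 (0.0661), C57BL/6J replicate 3 (0.115) or CB6F1/J replicate 1 (0.0878), and without CB6F1/J replicate 2 or 3 its allelic count fell under the filter, so that it was not tested. The cause of these differences was not tested. Groups of 3 libraries were too small for a test of single outlying samples.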

How the results depend on the processing

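The 3 strain counts stayed within 1.5 times with DESeq2 (26, 33 and 46), RLE factors, both other filters, fits of the compared strains alone and without windows overlapping a protein-coding promoter. Within 500 bp of the start site the A/J against C57BL/6J count was 22. Leaving out 1 library gave 18 to 30 calls for A/J against BALB/cJ, 25 to 44 for A/J against C57BL/6J and 35 to 56 for BALB/cJ against C57BL/6J. The allelic count of 5 became 11 with a mean count over 1, 3 with the replicate block and 3 within 500 bp, and ranged from 2 (without CB6F1/J replicate 2) to 4 when 1 hybrid library was left out. The interaction count of 2 became 1 with a mean count over 32, and ranged from 0 to 2 when 1 library was left out.

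With the replicate block the strain counts were 38, 49 and 56, of which 27, 36 and 48 were shared with the fit without it. *Gm15417* was lost between A/J and BALB/cJ, *C920009B18Rik* and *Gm14023* between alleles, and no other call was lost. No named window reversed. The 713 windows with no allelic tag could not be compared between alleles at any setting. Their median level in the strains was 105, against 95.8 in those with a tag.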
